A study of Homo sapiens with 12 samples.

Results

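Endogenous VPS72 was set against the histone variant that it carries, in 1 pair of ChIP-seq libraries from control Huh7 cells. Huh7 is a hepatocellular carcinoma line. A triple FLAG cassette with a blasticidin resistance gene had been placed at the VPS72 stop codon by Cas9 and homology-directed repair, and colonies that survived blasticidin were grown and genotyped. The series holds 12 libraries, 6 from such cells infected for 24 h with lenti-VPS72-FLAG virus, which overexpresses VPS72, and 6 from such cells infected with lenti-HA virus, the control. What lenti-HA carries, and whether the cells are 1 clone, is not stated in the labels. The pair described here is the FLAG library and the H2A.Z library of the lenti-HA cells, so 2 of the 12 libraries. The tag and a viral infection are common to all 12, and the genotype field of the lenti-HA cells gives wild type but for the tag. The peaks of each list on chromosomes 1 to 22 and X were taken, 184114 for FLAG and 182213 for H2A.Z. The distance from each FLAG summit to the nearest H2A.Z summit was then read by the width of the FLAG peak, in 5 classes whose lower limit is included. Each antibody had 1 library, so no difference has a replicate check and none was tested. The intervals in brackets are 95% intervals, Wilson for percentages and exact Poisson for densities, and allow for counting error alone. A FLAG ChIP from untagged cells was not analysed here, so a FLAG peak is a place of FLAG signal, not a proven VPS72 site. The genes at these places are not given, because no gene annotation in the hg19 build of the peak lists was used here.

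VPS72, also called YL1, is a subunit shared by the SRCAP and TIP60 remodelling complexes. It holds the dimer of H2A.Z and H2B while SRCAP exchanges it for the H2A dimer of a nucleosome. H2A.Z is placed mainly in the nucleosomes beside active promoters and at enhancers, and TIP60 can acetylate it there.

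The FLAG list was drawn from a much shallower library. Depth recovered from the deposited values was 4.38 M reads for FLAG and 17.9 M for H2A.Z, a ratio of 0.245. A FLAG summit had a median of 4 reads and an H2A.Z summit a median of 6. Peaks with a q of 0.05 or less, by the authors' q, numbered 68395 for FLAG and 26099 for H2A.Z. Most peaks of both lists thus had a q above 0.05, and 91034 H2A.Z peaks had one above 0.5. Values over all deposited peaks rest on these permissive lists. FLAG peaks had a median width of 363 bp, with a shortest of 281 bp and a widest of 19882 bp. H2A.Z peaks were narrower, with a median of 292 bp and a widest of 5749 bp. No peak of either list ran past the end of an hg19 chromosome.

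A minority of FLAG summits lay beside H2A.Z, at more than the share of the chromosomes that H2A.Z summits reach. Of the 184114 FLAG summits, 24763 had an H2A.Z summit within 500 bp, which is 13.4% (13.3 to 13.6%). The same windows around all H2A.Z summits covered 5.83% of the chromosomes, so the FLAG share was 2.31 times that of the genome. The median distance was 4241 bp, with quartiles at 1302 and 11157 bp. An H2A.Z summit lay within 100 bp of 3.72% of FLAG summits, within 1000 bp of 21.1%, and within 10000 bp of 72.4%. No H2A.Z summit lay within 100 kb of 1.13% of them. The near summits were almost all in single pairs, as the 24763 FLAG summits met 24289 different H2A.Z summits and 24280 pairs were nearest to each other in both directions. FLAG summits lay a median of 2763 bp from the nearest other FLAG summit, so most could not share a partner within 500 bp. The H2A.Z summit had the higher coordinate in 12238 cases, the lower in 12485 and the same base in 40.

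H2A.Z summits were densest at the FLAG summit itself. In the first 25 bp on either side there were 194 H2A.Z summits per Mb, which is 2.19 times (2.09 to 2.30) the 88.7 per Mb found 10 to 50 kb away from the same FLAG summits. The ratio was 1.83 at 100 to 150 bp, 1.48 at 250 to 300 bp, 1.21 at 500 to 750 bp and 1.05 at 1500 to 2000 bp. In the list as a whole no dip was seen at the summit in these bins. Over the whole 500 bp on each side the density was 140 per Mb, 1.58 times (1.561 to 1.5996) the flank. For H2A.Z peaks with a q of 1e-05 or less the first 25 bp held 5.95 times (5.00 to 7.03) the flank, from 138 pairs. At 1500 to 2000 bp around FLAG these strong peaks stood at 0.898 times (0.815 to 0.988) their flank.

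Wider FLAG peaks more often had an H2A.Z summit within 500 bp of their own, except the widest. FLAG peaks under 300 bp were 37.9% of the list, and 9.21% (8.99 to 9.42%) of their summits lay within 500 bp of an H2A.Z summit. Those of 300 to 500 bp had 13.7% (13.4 to 14.0%), and those of 500 to 1000 bp 18.1% (17.7 to 18.5%). The 12860 peaks of 1000 to 2000 bp had the highest share, 19.9% (19.2 to 20.6%). The 3059 peaks of 2000 bp or more had 16.8% (15.5 to 18.1%), below the class before them beyond the intervals. All 5 classes were above the 5.83% of the chromosomes. This window around the summit does not grow with the peak. Counted instead by overlap of the peak intervals, the order of the last pair of classes turned, with 38.5% (36.8 to 40.2%) at 2000 bp or more and 29.3% (28.5 to 30.1%) at 1000 to 2000 bp. Overlap, unlike the window, can grow with the length of the peak alone, so these measures are not alike. The drop in the widest class is thus stated for distance between summits only.

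**Figure D1:**
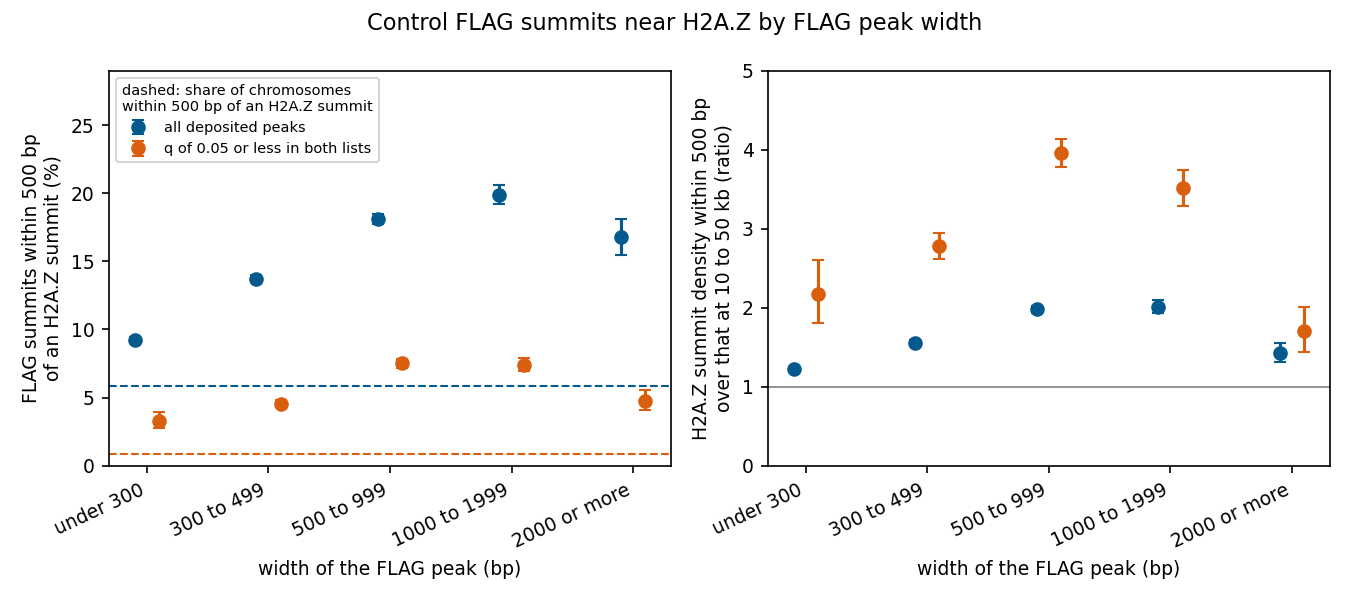
Left: percentage of control FLAG summits within 500 bp of an H2A.Z summit, by width of the FLAG peak in bp, with Wilson 95% intervals; dashed lines give the percentage of the chromosomes within 500 bp of an H2A.Z summit. Right: density of H2A.Z summits within 500 bp of FLAG summits over that at 10 to 50 kb, with exact Poisson intervals. In all deposited peaks the percentage is highest at 1000 to 2000 bp (19.9%) and lower at 2000 bp or more (16.8%), and in peaks with a q of 0.05 or less in both lists it is 7.40 and 4.75% there.

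The median distance had another order. It was 5390 bp for FLAG peaks under 300 bp, 4023 bp at 300 to 500 bp, 3371 bp at 500 to 1000 bp, 2842.5 bp at 1000 to 2000 bp and 2827 bp at 2000 bp or more. The widest peaks were thus as near to H2A.Z by the median as the next class but held fewer close pairs. Within 10000 bp the widest class had the most, 82.5%, against 78.9% at 1000 to 2000 bp and 67.1% under 300 bp. The surroundings of the widest peaks were richer in H2A.Z, with 121 summits per Mb at 10 to 50 kb, against 77.7 per Mb around the narrowest.

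**Figure D2:**
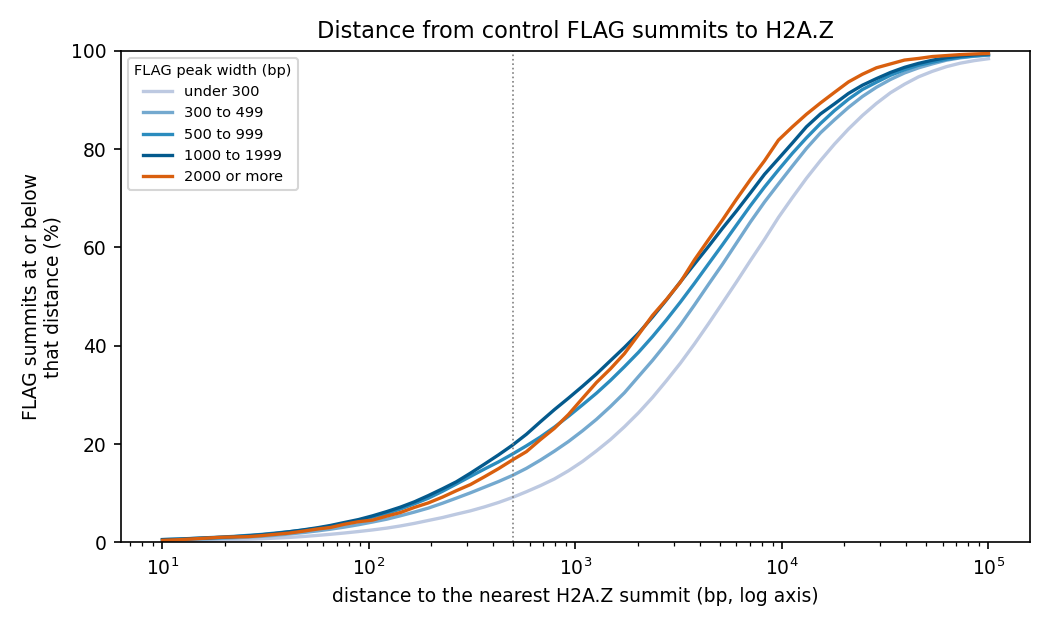
Percentage of control FLAG summits (vertical axis) with an H2A.Z summit at or below a given distance in bp (horizontal log axis), 1 line per width class of the FLAG peak; the dotted line marks 500 bp. The line of the widest class runs below that of 1000 to 2000 bp at 500 bp and above it at 10000 bp (82.5 and 78.9%).

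Set against its own flank, the widest class lay between the classes under 300 bp and of 300 to 500 bp. Density within 500 bp over that at 10 to 50 kb was 1.22 (1.19 to 1.25) under 300 bp, 1.56 (1.52 to 1.59) at 300 to 500 bp and 1.98 (1.93 to 2.02) at 500 to 1000 bp. It was 2.01 (1.94 to 2.09) at 1000 to 2000 bp and 1.43 (1.31 to 1.55) at 2000 bp or more. The reach of the raised density also differed. Around the narrowest peaks it ended by 250 to 300 bp, where the ratio was 1.05 (0.964 to 1.14). Around peaks of 500 to 1000 bp the ratio was still 1.36 at 500 to 750 bp and 1.18 at 1000 to 1500 bp. The widest class had a low and long profile, 1.98 (1.39 to 2.75) in the first 25 bp from 36 pairs, and 1.20 (1.10 to 1.32) at 1500 to 2000 bp.

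**Figure D3:**
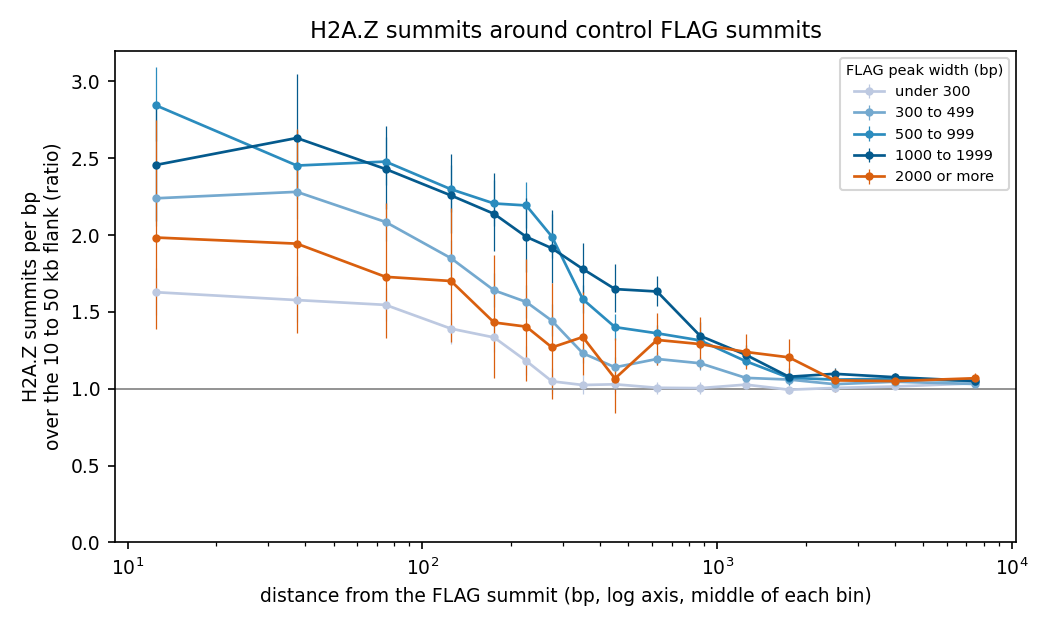
H2A.Z summits per bp around control FLAG summits, divided by the density at 10 to 50 kb (vertical axis, ratio), against distance from the FLAG summit in bp (log axis, both sides together), 1 line per width class, with exact Poisson 95% intervals. Classes of 500 to 1000 and 1000 to 2000 bp start at 2.84 and 2.46, the widest class at 1.98 and the narrowest at 1.63, and at 2000 to 3000 bp none is above 1.10.

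Among peaks with a q of 0.05 or less in both lists, the classes of 500 to 1000 and 1000 to 2000 bp were again above the widest. Of these 68395 FLAG summits, 4169 lay within 500 bp of such an H2A.Z summit, or 6.1%, against 0.846% of the chromosomes. By width the share was 3.28% (2.74 to 3.91%) under 300 bp, 4.55% (4.29 to 4.82%) at 300 to 500 bp and 7.51% (7.19 to 7.84%) at 500 to 1000 bp. It was 7.40% (6.94 to 7.88%) at 1000 to 2000 bp and 4.75% (4.05 to 5.57%) at 2000 bp or more. The density ratio was 3.28 (3.18 to 3.38) in all, with 3.96 (3.78 to 4.14) at 500 to 1000 bp and 1.71 (1.44 to 2.01) in the widest class.

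Width went with strength, and among summits with 6 reads or more the share near H2A.Z did not go up with width at like numbers of reads. Across the 184114 FLAG peaks the Spearman rho between width and reads at the summit was 0.695, a description of peaks from 1 library. The median was 3 reads under 300 bp, 5 at 300 to 500 bp, 6 at 500 to 1000 bp, 11 at 1000 to 2000 bp and 15 at 2000 bp or more. Among summits with 2 to 3 reads, 6.95% of FLAG peaks under 300 bp and 8.82% of those of 300 to 500 bp lay near H2A.Z. With 4 to 5 reads the shares were 13.6, 12.2, 14.8 and 13.99% in the classes up to 2000 bp. Among summits with 6 to 8 reads, the shares from the narrowest class to the widest were 20.1, 18.6, 19.6, 17.7 and 8.26%. The last was from 218 peaks (5.29 to 12.7%). With 9 to 15 reads the shares were 28.1, 22.9, 22.5, 20.3 and 12.5%, the first from 153 peaks (21.6 to 35.7%). With 16 reads or more they were 32.1% at 300 to 500 bp, 27.6% at 500 to 1000 bp, 23.05% (21.7 to 24.5%) at 1000 to 2000 bp and 21.8% (19.7 to 23.9%) at 2000 bp or more, the last pair with overlapping intervals. Narrow peaks with many reads lay in surroundings rich in H2A.Z, at 136 summits per Mb for those under 300 bp with 6 to 8 reads, against 82.9 per Mb for the widest with as many reads. Against the flank the order by width depended on the reads. The density ratios from the narrowest class up were 1.41, 1.49, 1.85 and 1.92 at 4 to 5 reads, without the widest class. They were 1.54, 1.72, 2.03, 2.05 and 0.996 at 6 to 8 reads, and 1.79, 1.81, 2.14, 2.02 and 1.20 at 9 to 15 reads. With 16 reads or more they were 2.48, 2.41, 2.01 and 1.61 from 300 to 500 bp on, the first from 237 peaks only. No intervals are given for the ratios by reads, so values close to each other are not ordered. The classes of reads were chosen after the lists were seen.

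Strength was also taken from the p of the authors. In the strongest 20% of FLAG peaks by −log10 p, 13.4% (8.29 to 20.9%) of the 112 peaks under 300 bp lay near H2A.Z, then 18.2, 21.6 and 20.5% in the next classes and 16.9% (15.6 to 18.3%) in the widest. In the weakest 20% the shares were 9.08% under 300 bp, 13.5% at 300 to 500 bp and 12.6% at 500 to 1000 bp. At equal width the strongest were thus above the weakest in the classes of 300 to 500 and 500 to 1000 bp, beyond the intervals. In the groups of 20% between, from weak to strong, the shares in the classes up to 1000 bp were 9.79, 12.5 and 14.6%. Then came 7.78, 12.1 and 14.7%, and then 12.8, 13.9 and 17.9%. At like p the share thus went up with width over these classes, except in the weakest 20%. From 1000 bp on no further rise went beyond the intervals. The splits by p and by reads thus differed. The 100 FLAG peaks of highest −log10 q had 39.0% (30.02 to 48.8%) near H2A.Z, the 100 widest 24.0% (16.7 to 33.2%) and the 100 of highest fold 18.0% (11.7 to 26.7%), the last pair with overlapping intervals. Among the top 1000 the shares were 25.3% by q, 17.0% by width and 19.3% by fold, so the order of width and fold turned.

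The widest FLAG peaks shared places that the classes did not use. Pale-staining (gneg) chromosome bands, which are GC-rich and gene-rich, held 54.6% of the peaks under 300 bp, 61.4% at 300 to 500 bp, 66.5% at 500 to 1000 bp, 71.8% at 1000 to 2000 bp and 78.8% at 2000 bp or more. These bands make up 42.4% of the chromosomes. The outer 2 Mb of the chromosomes held 4.74% of the narrowest and 35.6% of the widest peaks, with 3.03% of the genome. Chromosome 19 held 3.71 and 9.41% of the same classes, with 1.95% of the genome. Within 2 Mb of an end the widest class had a density ratio of 1.16 (0.994 to 1.36), and further inside one of 1.59 (1.43 to 1.76). Peaks of 1000 to 2000 bp had 1.40 (1.27 to 1.54) near the ends and 2.19 (2.10 to 2.28) further inside. Near the ends these intervals overlap, and the shares within 500 bp were 14.9% (12.9 to 17.1%) in the widest class and 15.8% (14.4 to 17.2%) in the class before it.

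Other marks were set against the same classes. An H2A.Zac summit, the acetylated form, lay within 500 bp of 4.12, 7.36, 11.3, 12.7 and 10.0% of FLAG summits from the narrowest class to the widest, the same shape as for H2A.Z. For H3K27ac, which marks active enhancers and promoters, the shares were 3.02, 5.24, 7.65, 6.003 and 3.66%, with the top at 500 to 1000 bp. For H3K4me1, found at enhancers and around promoters, they were 4.35, 6.17, 9.16, 12.8 and 13.2%, without a drop in the widest class by share. Against its flank H3K4me1 did have a lower density ratio in the widest class, 1.33 (1.21 to 1.46), than at 1000 to 2000 bp, 1.59 (1.52 to 1.67). The lists differ in length, and their windows covered 2.63, 2.06 and 3.92% of the chromosomes for H2A.Zac, H3K27ac and H3K4me1. Over all FLAG summits, density within 500 bp over the flank was 1.58 for H2A.Z, 1.69 for H2A.Zac, 1.54 for H3K27ac and 1.07 for H3K4me1. With both lists at a q of 0.05 or less it was 3.28 (3.18 to 3.38) for H2A.Z and 2.65 (2.57 to 2.72) for H2A.Zac. H3K27ac then had 2.52 and H3K4me1 1.10, so H2A.Z came first and not H2A.Zac. Input peaks, only 467 in number, lay within 500 bp of 43 of the 184114 FLAG summits. This is 0.0234%, against 0.0154% of the chromosomes within 500 bp of an input summit. The density ratio for input was 1.44 (1.04 to 1.94), so the low count goes with a short list. The 2 forms of H2A.Z lay far closer to each other than FLAG did to either. An H2A.Z summit was within 500 bp of 44.4% of H2A.Zac summits, and the first 25 bp held 11.3 times the flank, against 2.19 times around FLAG. It was also within 500 bp of 33.5% of H3K27ac summits and 18.5% of H3K4me1 summits, against 13.4% of FLAG summits. Of H2A.Zac, H3K27ac, H3K4me1 and FLAG, FLAG thus had the lowest share beside H2A.Z.

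FLAG summits near H2A.Z carried the other marks more often. Within 500 bp of H2A.Z, 31.4% of FLAG summits also had H2A.Zac within 500 bp, 19.5% had H3K27ac and 14.9% had H3K4me1. Away from H2A.Z these were 3.69, 2.70 and 5.44%. The near summits had a median of 5 reads and a median peak width of 437 bp, and those away from H2A.Z 4 reads and 352 bp. Fold at the FLAG summit and fold at its H2A.Z partner were weakly related, with a Spearman rho of 0.128 over 24280 mutual pairs, each from the same 2 libraries.

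Seen from H2A.Z, the share beside FLAG was much higher at strong and wide peaks. Of all 182213 H2A.Z summits, 25277 had a FLAG summit within 500 bp, or 13.9%, against 5.93% of the chromosomes. The share was 10.9% for H2A.Z peaks with a q above 0.5 and 17.8% (17.1 to 18.6%) at a q of 0.01 to 0.05. It was 32.0% (30.8 to 33.1%) at 1e-05 to 0.001 and 51.3% (46.3 to 56.3%) for the 384 peaks of 1e-10 or less. The median distance to FLAG was 5316 bp in the weakest of these classes and 464 bp in the strongest. With a q of 0.05 or less in both lists, 16.1% of H2A.Z summits had FLAG within 500 bp, against 2.23% of the chromosomes.

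Width of the H2A.Z peak went the same way throughout, unlike width of the FLAG peak. H2A.Z peaks from the narrowest class to the widest had FLAG within 500 bp in 10.9, 12.9, 20.4, 36.1 and 46.8% of cases. The 617 H2A.Z peaks of 2000 bp or more had 4.05 times (3.60 to 4.54) the FLAG density of their flank, and the 94744 under 300 bp had 1.34 times (1.31 to 1.36). At like strength the wide peaks were still higher. At a q of 1e-05 to 0.001, FLAG lay near 38.2% (36.3 to 40.2%) of H2A.Z peaks of 1000 bp or wider and 28.3% (26.96 to 29.7%) of narrower ones. At a q of 1e-10 or less the shares were 53.7 and 41.6%, with overlapping intervals.

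**Figure D4:**
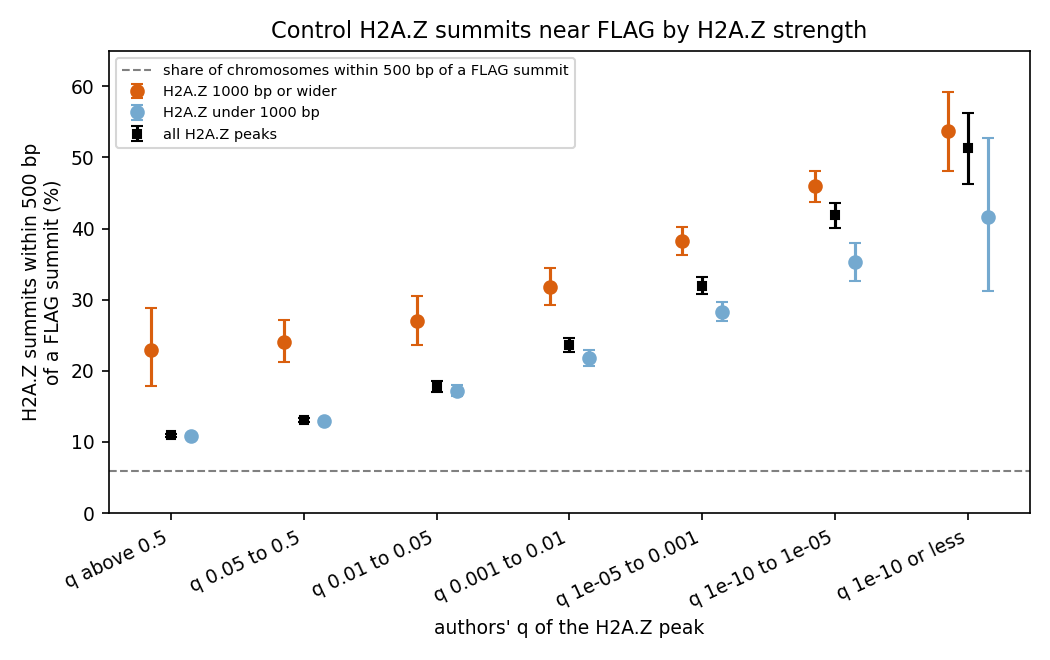
Percentage of control H2A.Z summits with a FLAG summit within 500 bp (vertical axis) by the authors' q of the H2A.Z peak (horizontal axis, weakest to strongest), for peaks of 1000 bp or wider, all peaks and peaks under 1000 bp, with Wilson 95% intervals. The dashed line is the 5.93% of the chromosomes within 500 bp of a FLAG summit; all H2A.Z peaks go up from 10.9 to 51.3%.

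Acetylation marked less of a difference once strength was held. H2A.Z summits with H2A.Zac within 500 bp had FLAG in 21.9% (21.4 to 22.3%) of cases and those without it in 11.8% (11.6 to 11.96%). At a q of 1e-05 to 0.001 these were 33.3% (32.0 to 34.6%) and 27.3% (25.04 to 29.7%). At a q of 1e-10 to 1e-05 they were 42.2% (40.3 to 44.1%) and 40.1% (36.2 to 44.2%), with overlapping intervals.

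Chromosomes differed in how often FLAG met H2A.Z. The share of FLAG summits within 500 bp of H2A.Z was 7.79% (7.06 to 8.60%) on chromosome X and 20.7% (19.6 to 21.7%) on chromosome 20. Chromosome X had 19.6 H2A.Z summits per Mb and chromosome 20 had 123. Over the 23 chromosomes the Spearman rho between the share and the number of H2A.Z summits per Mb was 0.843. That between the share and the median local background of the H2A.Z peaks, the level the peak caller used over the lowest in the list, was 0.745. Both are descriptions of points from the same libraries. Against the flank the order was different, with density ratios of 1.29 (1.23 to 1.35) on chromosome 19 and 2.20 (2.00 to 2.42) on chromosome 13. The ratio was above 1 on all 23 chromosomes, with intervals above 1 on all 23.

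**Figure D5:**
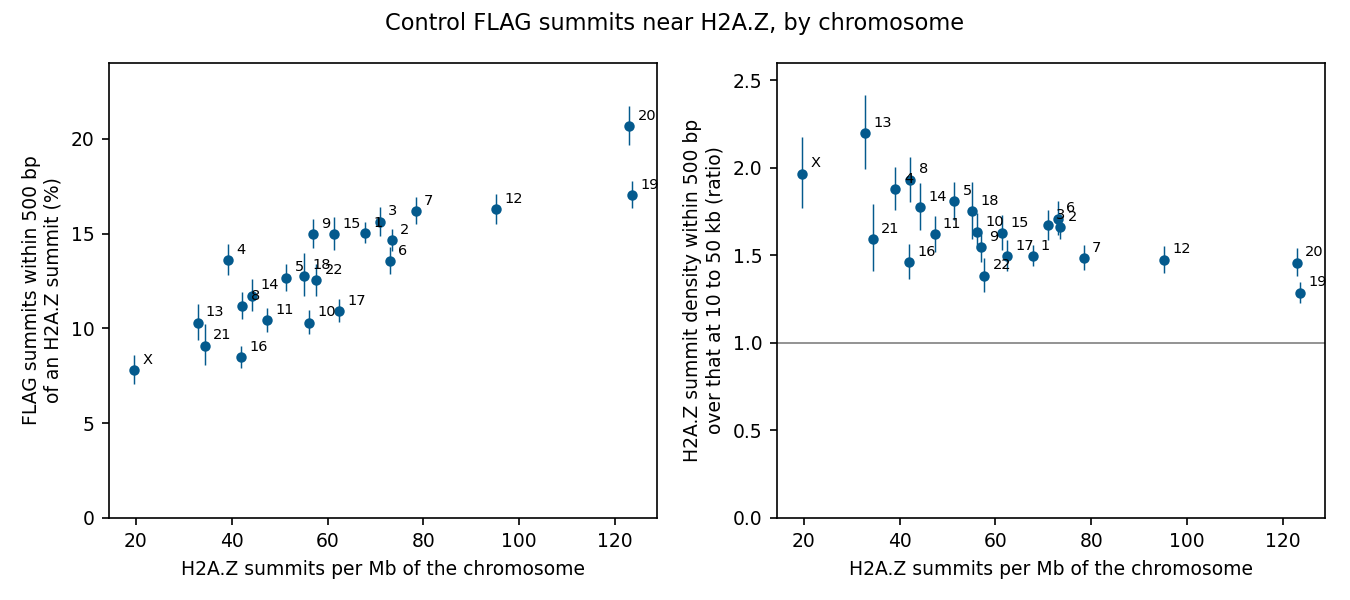
H2A.Z summits per Mb of each chromosome (horizontal axes) against the percentage of control FLAG summits within 500 bp of an H2A.Z summit (left) and against the density ratio of H2A.Z within 500 bp of FLAG over 10 to 50 kb (right), 1 point per chromosome with 95% intervals. The percentage runs from 7.79% on X to 20.7% on 20, while the ratio is above 1 on every chromosome.

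The strongest FLAG peaks of each width class showed the range of pairings. In the widest class the strongest was at 1q42.13 (chromosome 1, 228744006 to 228746968), where the 5S rRNA gene cluster is located. It had 340 reads and a fold of 19.7. An H2A.Z summit lay 34 bp away, in a peak with 60 reads but a fold of 2.07, over a background of 20.4 times the lowest in its list. The next, at 21p11.2 (chromosome 21, 9825453 to 9827490), had 535 FLAG reads, overlapped an input peak, and had its nearest H2A.Z summit 8890 bp away. At 1000 to 2000 bp the strongest was at 7p11.2 (chromosome 7, 56441022 to 56442510), with 357 reads and H2A.Z 81 bp away. The next, at 19q13.12 (chromosome 19, 36766430 to 36768124), had 188 reads and H2A.Z 1463 bp away. The local background of FLAG at these 4 places was 26.0 to 131 times the lowest in its list.

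The strongest peaks of the narrower classes were also mixed. At 500 to 1000 bp, the peak at 2p22.3 (chromosome 2, 33141191 to 33141900) had 332 FLAG reads and no H2A.Z summit nearer than 15468 bp. The next, again at 1q42.13 (chromosome 1, 228778445 to 228779355), had 160 reads and H2A.Z at 168 bp. At 300 to 500 bp, the peak at 22q11.1 (chromosome 22, 16374531 to 16375013) had 55 reads and H2A.Z at 96 bp, and the one at 3q21.3 (chromosome 3, 127027676 to 127028133) had 32 reads and H2A.Z at 1939 bp. Under 300 bp, the peaks at 7q22.3 (chromosome 7, 105741634 to 105741920) and 14q32.2 (chromosome 14, 99887285 to 99887580) had 8 and 7 reads, with H2A.Z at 10739 and 41448 bp. Of these 10 peaks, 4 had an H2A.Z summit within 500 bp. The share was 13.4% over all FLAG summits and 39.0% in the 100 of highest −log10 q. The 4 H2A.Z partners were unlike in strength. That at 22q11.1 was weak, with a −log10 q of 0.230. Those at 7p11.2 and at 1q42.13 stood over high H2A.Z backgrounds, 34.0 times the lowest in the list at 7p11.2 and 20.4 and 10.9 times at 1q42.13.

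Pairs within 100 bp that ranked high in both lists had FLAG ranks between 5 and 1928. The pair whose worse rank was best was the 7p11.2 peak above, whose H2A.Z peak had 122 reads and a fold of 2.54. At 9p13.1 (chromosome 9, 40633210 to 40633958), summits 13 bp apart had 41 FLAG reads and 19 H2A.Z reads, with folds of 12.5 and 6.66. At 9q13 (chromosome 9, 66457211 to 66458696), summits 78 bp apart had 42 and 32 reads. At 7q36.3 (chromosome 7, 155142491 to 155143678) the summits were 1 bp apart, with 43 and 23 reads. A FLAG peak of 7986 bp at 20q13.33 (chromosome 20, 61441836 to 61449821) had its summit 43 bp from that of an H2A.Z peak of 2462 bp. At 9q32 (chromosome 9, 115821943 to 115824162), 57 bp apart, the H2A.Z peak ranked 118 in its list, with a fold of 8.28, and the FLAG peak 1928 in its own. Of these 6 pairs, 5 also had H2A.Zac within 500 bp and 1 had H3K27ac. H3K4me1 lay within 500 bp at 7p11.2, 9p13.1, 20q13.33 and 9q32. Over all FLAG summits within 500 bp of H2A.Z the shares were 31.4% for H2A.Zac, 19.5% for H3K27ac and 14.9% for H3K4me1.

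All but the first of the 3 strongest H2A.Z peaks had a FLAG summit within 500 bp, and the first had one within 1000 bp. Over all H2A.Z summits these limits held for 13.9 and 22.02%. Among H2A.Z peaks with a q of 1e-10 or less, 51.3% had FLAG within 500 bp. At 2q13 (chromosome 2, 114340719 to 114342170; 63 H2A.Z reads), the nearest FLAG summit was 619 bp away, with 22 reads. At Xq23 (chromosome X, 115003337 to 115005383; 77 reads) it was 15 bp away, with 42 reads. At 11q12.1 (chromosome 11, 57334206 to 57336284; 53 reads) it was 46 bp away, with 12 reads and a FLAG fold of 2.85. Conversely, strong FLAG peaks also stood without H2A.Z. The strongest with none within 100 kb were at 8q11.23 (chromosome 8, 55370484 to 55372535; 25 reads), 2p24.3 (chromosome 2, 15359854 to 15360579; 32 reads) and 3p12.3 (chromosome 3, 78631989 to 78633273; 21 reads), at 357833, 262993 and 474615 bp. None of these 3 had H2A.Zac, H3K27ac or H3K4me1 within 500 bp, and all 3 were found with VPS72 overexpression at a q of 0.05 or less. Of all 2082 FLAG summits with no H2A.Z within 100 kb, 1.87% had H2A.Zac, 1.297% H3K27ac and 0.961% H3K4me1 within 500 bp. The lack of these marks thus does not set the 3 apart from the rest of that group. Of the same 2082 summits, 14.4% were found with overexpression at that q.

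Recurrence in the second FLAG library went with width and with nearness to H2A.Z. A FLAG summit of overexpression with a q of 0.05 or less lay within 500 bp of 4.01% of control FLAG summits under 300 bp, 10.5% at 300 to 500 bp, 30.7% at 500 to 1000 bp, 58.1% at 1000 to 2000 bp and 62.0% at 2000 bp or more. Of the 30706 control FLAG summits found again, 20.8% (20.3 to 21.2%) lay within 500 bp of control H2A.Z, and of those not found 11.99% (11.8 to 12.1%). The drop in the widest class was present among peaks found again, with density ratios of 2.21 (2.10 to 2.31) at 1000 to 2000 bp and 1.50 (1.35 to 1.67) at 2000 bp or more. It was also present with overexpression, in that pair's own libraries at a q of 0.05 or less; their titles name VPS72, while their genotype fields name VPS73 and VPS74. There the ratio was 4.09 (3.71 to 4.50) at 1000 to 2000 bp and 1.77 (1.25 to 2.43) at 2000 bp or more, and in the control 3.51 (3.29 to 3.74) and 1.71 (1.44 to 2.01). Over all widths, 4.23% (4.06 to 4.42%) of FLAG summits lay near H2A.Z with overexpression and 6.1% in the control, but the H2A.Z windows covered 0.454 and 0.846% of the chromosomes, and the libraries differ in depth.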

How the data were processed

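Peaks had been called per library with MACS2 and reads handled with FastQC, Trimmomatic and BWA, per the submitters' processing notes, which name hg19 and hg38. No version is named, and neither the calling control nor any threshold is stated in the labels. One list per library was deposited. Per the narrowPeak format, the deposited fold of a peak is a ratio of its summit to local background, p and q are deposited as −log10, the deposited score is 10 times −log10 p without decimals, and the summit offset is a position. A summit file of each library matched these positions.

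Peaks on chromosomes 1 to 22 and X were used and coordinates are hg19, 1-based; 3118 FLAG and 3384 H2A.Z peaks on other contigs were left out. Local background is the level the peak caller used at a peak, over the lowest in its list. Reads at each summit were solved for as the whole number that gives both its deposited fold and its −log10 p in the caller's Poisson model (tolerance 0.002). This gave a whole number for 99.9995% of FLAG and 100% of H2A.Z peaks, and a single one for 91.1 and 98.5%. Depth assumed a genome of 2.7 Gb and an extended read as long as the shortest peak. Recovery was tested on 3486 simulated peaks. Windows were cut at chromosome ends (lengths from GenomeInfoDb 1.38.1; bands from circlize 0.4.16), and assembly gaps were kept. Software was scipy 1.17.1, numpy 2.4.6 and pandas 2.3.3 in Python 3.11.15, with plots by matplotlib 3.10.9. Named regions were the 2 FLAG peaks of highest −log10 q per width class, the 6 pairs within 100 bp with the best worse rank, the 3 strongest FLAG peaks with no H2A.Z within 100 kb and the 3 strongest H2A.Z peaks. The pair of libraries and the classes were chosen with earlier results of these data known. Splits by reads, by H2A.Z strength, width and H2A.Zac, and by recurrence in the overexpression library were added after the lists were seen.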

Additional observations from a re-analysis of the deposited data

How the results depend on the processing

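Over all FLAG peaks, 13.4% of summits lay within 500 bp of H2A.Z. This became 6.10% with both lists at a q of 0.05, 17.9% with only FLAG so limited, 1.78% with both at 1e-05, 7.42% with H2A.Zac in place of H2A.Z, and 3.72 and 21.1% with 100 and 1000 bp as the limit. For FLAG peaks under 300 bp (9.21%) the same settings gave 3.28, 12.3, 0 (of 1 peak), 4.12, 2.46 and 15.5%, overlapping intervals 6.91% and the narrowest 20% of the list 8.88%. For those of 1000 bp or wider (19.3%) both lists at 0.05 and at 1e-05 gave 6.86 and 1.75%, H2A.Zac 12.1%, the limits of 100 and 1000 bp 5.07 and 29.9%, and overlapping intervals 31.1%. For H2A.Z summits near FLAG (13.9%) the same first 6 settings gave 16.1, 6.996, 9.33, 16.7, 3.76 and 22.02%, and overlapping intervals 14.2%. The density ratio (1.58) was 3.28, 1.92 and 4.53 under the 3 limits on q, 1.69 with H2A.Zac and 1.52 with a flank of 5 to 10 kb. With only control FLAG peaks found again under overexpression, a choice made after seeing the data, these 5 values were 20.8, 14.0, 20.9, 3.65% and 2.21.

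Of 55 values, 18 stayed within the interval of the value reported and 37 did not, but FLAG peaks of 1000 bp or wider were above those under 300 bp in 11 of 11 settings (1.49 to 4.50 times), and the density ratio was above 1 in 9 of 9. At 1e-05 the narrow class held 1 peak, so its ratio was not computed. No paired analysis was possible because each antibody had 1 library. FLAG peaks of 2000 bp or more were above those of 1000 to 2000 bp when overlap of intervals was counted (38.5 and 29.3%), and with 100 bp as the limit the intervals of these classes overlapped (4.48 and 5.21%). FLAG peaks under 300 bp had a median of 3 reads, and the effect of depth on them was not tested.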
